A study of Homo sapiens with 6 samples.

Results

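Collagen chain genes were described in MCF10AT1 cells as the protein-coding GENCODE 29 genes named COL, a number, A and a number, without COL17A1, the collagen of hemidesmosomes. The rule gave 43 genes among the 58381 gene IDs of the table. Of these, 18 had a mean of at least 10 normalized counts over the 6 libraries and were tested, and 25 lay below that mean and were not tested. COL4A3 was the tested gene nearest to the limit, with a mean of 12.6 normalized counts, and COL9A2 lay nearest below it, with 6.79.

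MCF10AT1 is a human breast epithelial line derived from a xenograft lesion of immortal MCF10A cells that carry activated HRAS, and both groups share that background, the same medium and no further treatment. Antibodies to CD24 and CD44, both surface proteins, were used to sort a CD24low, CD44high fraction, which the submitters' column names call CSC, from a CD24high, CD44-positive fraction, which those names call Bulk. Total RNA without ribosomal RNA (rRNA) was sequenced in 3 libraries per fraction, and the comparison asks which collagens differ between the fractions. Whether the replicates were separate cultures is not stated in the labels, so each p-value reflects the spread of these libraries alone, and that spread may be technical.

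Collagens are extracellular proteins whose alpha chains wind into trimers along stretches in which glycine recurs at a fixed spacing. Fibrillar collagens form the fibres of connective tissue, type IV collagens form the network of the basement membrane under an epithelium, and other classes coat fibrils, build beaded filaments, anchor the basement membrane or span the cell membrane. Many types are heterotrimers, so a cell needs the messages of several chain genes to build them. In the breast, epithelial cells rest on a basement membrane, and fibrillar collagens are known mainly as products of stromal fibroblasts.

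The fractions overlapped for 14 of the 18 tested collagen genes, and the other 4 were all higher in CD24low cells. Type VIII chain gene COL8A1, type VI chain genes COL6A1 and COL6A3 and type V chain gene COL5A3 had every CD24low library above every CD24high library, a pattern that 10.2% of all 16047 tested genes showed in this direction. No tested collagen gene had every CD24low library below every CD24high library, against 9.32% of all tested genes. With limma's Benjamini-Hochberg adjusted p over all tested genes, 0 of 18 collagen genes passed 0.05, as did 0% of all genes. This fit takes no account of pairing of libraries by number. A fit with a replicate block, given at the end, called more collagen genes and more of all genes. At an unadjusted limma p below 0.05 there were the same 4 collagen genes, all higher, against 6.34% of all genes higher and 7.15% lower. DESeq2 on the recovered reads called 1 collagen gene, COL8A1, as higher, against 1.36% of all genes, and 0 as lower, against 1.15%. By edgeR's adjusted p 0 collagen genes and 0% of all genes passed, and 5 collagen genes had an unadjusted edgeR p below 0.05, against 14.1% of all genes. Differences are given as CD24low minus CD24high in log2 (normalized count + 1). Their median over the 18 genes was 0.08, against -0.01 over all tested genes, and single genes ran from -0.25 to 2.62.

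**Figure D1:**
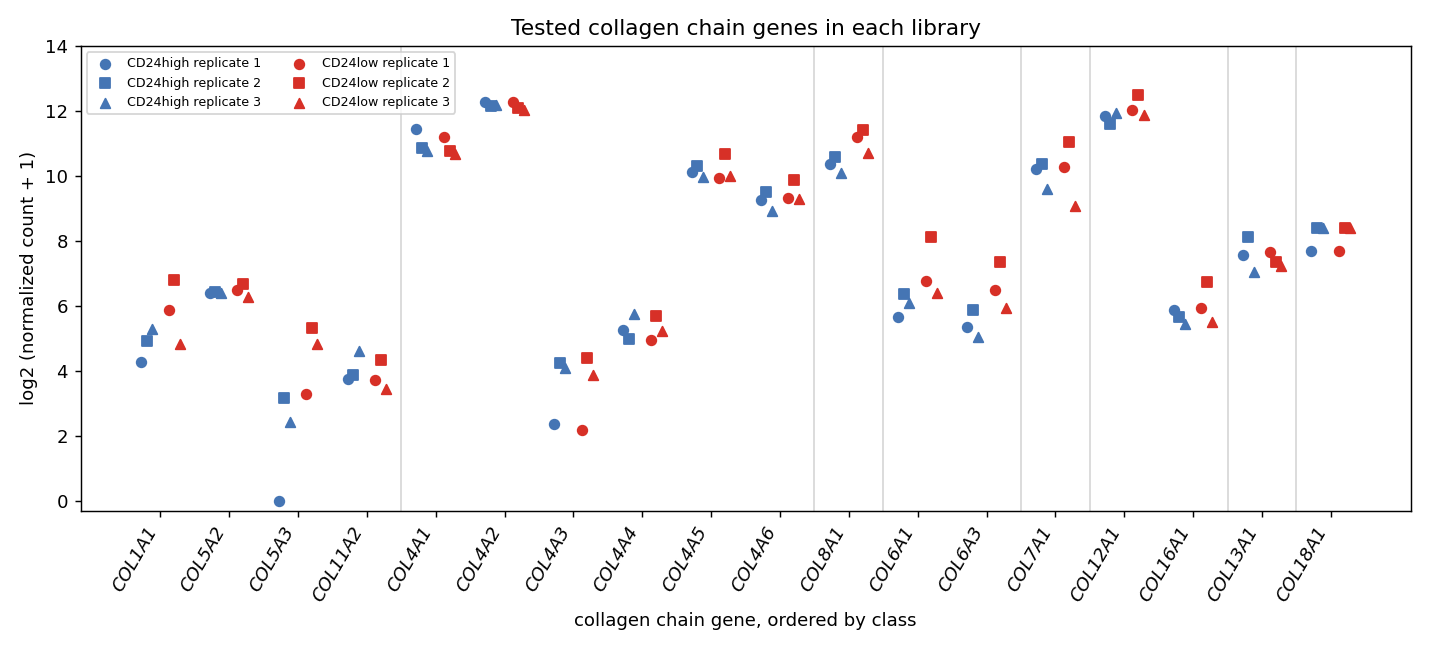
Level of each tested collagen chain gene (log2 of normalized count + 1, vertical axis) in each of the 6 libraries, with genes ordered by class from fibrillar to multiplexin and grey lines between classes. CD24low replicate 2 (red squares) is the highest library for 12 of the 18 genes, and COL4A2 and COL12A1 are the collagen genes with the highest counts.

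Facts of the libraries that bear on every gene are given once here. Recovered reads ran from 16691162 to 27293177 per library, and CD24high replicate 3 was the shallowest. The share of reads from rRNA genes was low, 1.30% to 2.27%, in CD24high libraries 1 and 2 and CD24low library 3, and high, 7.07% to 10.2%, in CD24high library 3 and CD24low libraries 1 and 2. Differences within low and within high share rest on 1 library on a side and were not tested. CD24, the transcript of the sorting marker, ran from 2325 to 5687 normalized counts in CD24high and from 329 in CD24low replicate 2 to 1370 in CD24low replicate 3. The transcript of CD44, the other sorting marker, ran from 7878 to 8993 in CD24high and from 6866 to 8294 in the CD24low, CD44high libraries, so its mean was lower in the fraction labelled CD44high and the groups overlapped (difference -0.17, 95% interval -0.43 to 0.09, limma adjusted p = 0.560). In bulk libraries, fewer cells that express a gene and less of its RNA per cell cannot be told apart.

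Markers of other cell types were set beside the collagens. The basal and pan-epithelial markers were present (6 of 6 and 4 of 4 tested), with sums of 63024 to 71468 and 62315 to 81923 normalized counts in CD24high and of 46734 to 51647 and 42274 to 73537 in CD24low libraries. Of 8 fibroblast markers, 1 was tested, TWIST2, and LUM, PRRX1 and TCF21 were at 0 in all libraries. The fibroblast sum was 162 to 184 normalized counts in CD24high and 239 to 351 in CD24low libraries, highest in CD24low replicate 2, and TWIST2 supplied 158 to 179 and 230 to 333 of it. Endothelial markers summed to 87.1 to 396 and 105 to 342, immune markers to 110 to 140 and 139 to 243, and pericyte and smooth muscle markers to 33.6 to 43.5 and 38.2 to 57.3 normalized counts. The part of these markers in the collagen values was not tested.

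COL8A1 (ENSG00000144810.15, chromosome 3, 99638475 to 99799226, plus strand, hg38) encodes a chain of type VIII collagen, a short-chain collagen that forms hexagonal networks and is known from vessel walls and the cornea. CD24high replicates 1, 2 and 3 had 1310, 1523 and 1084 normalized counts, and CD24low replicates 1, 2 and 3 had 2332, 2698 and 1666. Every CD24low library lay above every CD24high library, and CD24low replicate 3 was the nearest to them. Means were 1306 ± 220 and 2232 ± 523 (SD, n = 3 libraries each), a 1.69-fold difference (log2 0.76, SE 0.19, 95% interval 0.34 to 1.18). Limma's adjusted p was 0.154 and DESeq2's was 0.00663. The DESeq2 call was lost without CD24high replicate 1 (adjusted p = 0.0671), CD24high replicate 3 (0.0926), CD24low replicate 1 (0.105) or CD24low replicate 2 (0.158), and was held without CD24high replicate 2 (0.0125) or CD24low replicate 3 (2.24e-05). Within libraries of low rRNA share COL8A1 differed by 0.24 and within those of high share by 1.21. As a share of all collagen normalized counts it was 7.50% to 9.90% in CD24high and 11.6% to 13.3% in CD24low libraries. The partner chain gene COL8A2 had 1 read in CD24low replicate 1 and 0 reads in the other libraries, so COL8A1 was the only type VIII chain gene above 3 reads in any library.

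Type VI collagen builds beaded filaments around cells, and its filaments are known as heterotrimers of the chains of COL6A1, COL6A2 and a longer chain such as that of COL6A3. COL6A1 (chromosome 21, 45981737 to 46005050, plus strand) had 49.8, 81.0 and 67.2 normalized counts in CD24high replicates 1 to 3 and 108, 278 and 84.2 in CD24low replicates 1 to 3. COL6A3 (chromosome 2, 237324003 to 237414375, minus strand) had 39.8, 58.3 and 32.1 in CD24high and 88.1, 163 and 60.7 in CD24low replicates 1 to 3. Both genes were highest in CD24low replicate 2, and for both the gap between CD24low replicate 3 and CD24high replicate 2 was narrow. COL6A1 differed 2.09-fold (log2 1.06, SE 0.40, 95% interval 0.18 to 1.95; limma adjusted p = 0.296, DESeq2 adjusted p = 0.0665). COL6A3 differed 2.24-fold (log2 1.16, SE 0.36, 95% interval 0.35 to 1.97; limma adjusted p = 0.222, DESeq2 adjusted p = 0.0567). Without CD24low replicate 2 the differences were 0.55 and 0.78. Within low rRNA share they were 0.40 and 0.33, and within high share 1.36 and 1.87.

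The third chain of the common type VI heterotrimer was nearly missing from the reads. COL6A2, which lies next to COL6A1 on chromosome 21 (46098097 to 46132849, plus strand), had 0, 1 and 0 reads in CD24high replicates 1 to 3 and 3, 16 and 2 reads in CD24low replicates 1 to 3, and was below the filter. Per kilobase of annotated exon, COL6A1 ran from 9.32 to 52.0 normalized counts, COL6A3 from 1.64 to 8.32 and COL6A2 from 0 to 2.84. The level of COL6A2 per kilobase was at most 0.0545 of that of COL6A1 in any library. COL6A1 was 4.52 to 7.68 times COL6A3 on that scale, and the ranges of this ratio overlapped between the fractions. COL6A5 had 0 reads in all libraries and COL6A6 had 1 read in CD24low replicate 3.

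Among fibrillar collagens the major chains of connective tissue were low or missing. COL5A3 (chromosome 19, 9959561 to 10010471, minus strand), which encodes a minor chain of type V collagen, had 0, 7.90 and 4.38 normalized counts in CD24high replicates 1 to 3 and 8.81, 39.2 and 27.4 in CD24low replicates 1 to 3. The groups did not overlap, but the highest CD24high library and the lowest CD24low library lay close together. The difference of 2.62 (SE 0.82, 95% interval 0.80 to 4.45) was the largest of the tested collagen genes, with a limma adjusted p of 0.222 and a DESeq2 adjusted p of 0.0717. COL5A3 had a mean of 4.1 in CD24high and 25.1 in CD24low, so it reached the filter mean of 10 only through CD24low. Its rank and its place among the 4 genes without overlap rest on that entry. Within low rRNA share COL5A3 differed by 3.25 and within high share by 1.88, and without CD24low replicate 2 by 2.20. Without CD24high replicate 1, the library at 0, the difference was 1.69, and with a pseudocount of 5 it was 1.68. Of its annotated exon bases, 4% lie under a gene on the other strand, AC008742.1, and although the library kit marks strand, the strand setting of the read counter is not given in the sources used here.

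COL5A2 (chromosome 2, 189031896 to 189225312, minus strand), a regulatory chain of collagen fibrils, was the steadiest of the fibrillar genes, with 83.0, 85.0 and 83.3 normalized counts in CD24high replicates 1 to 3 and 89.9, 102 and 76.4 in CD24low replicates 1 to 3. Its difference was 0.08 (SE 0.19, 95% interval -0.34 to 0.51, limma adjusted p = 0.879). COL5A1, the chain found in most type V trimers, had 2 reads in CD24low replicate 2 and 0 in every other library. The level of COL5A3 relative to COL5A2, per kilobase, was 0 to 0.103 in CD24high and 0.108 to 0.423 in CD24low libraries.

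COL1A1 (chromosome 17, 50183289 to 50201632, minus strand) encodes the main chain of type I collagen, the most abundant collagen of the body. It had 18.3, 29.6 and 38.0 normalized counts in CD24high replicates 1 to 3 and 58.2, 110 and 27.4 in CD24low replicates 1 to 3. CD24low replicate 3 lay within the CD24high range, so the groups overlapped. The difference of 1.01 (SE 0.47, 95% interval -0.04 to 2.05, limma adjusted p = 0.382, DESeq2 adjusted p = 0.209) was 0.53 without CD24low replicate 2, and 0.23 and 1.05 within low and high rRNA share. COL1A2, whose chain joins that of COL1A1 in the usual type I heterotrimer, had 1 read in CD24high replicate 1 and 0 in the other 5 libraries. COL3A1, which encodes the homotrimeric type III collagen of pliable tissues and neighbours COL5A2 on chromosome 2, had 1, 0 and 0 reads in CD24high replicates 1 to 3 and 2, 10 and 5 in CD24low replicates 1 to 3. COL11A2, a cartilage fibril chain gene, had 12.4, 13.8 and 23.4 normalized counts in CD24high and 12.3, 19.1 and 9.80 in CD24low replicates 1 to 3, a difference of -0.25 (95% interval -1.11 to 0.62).

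**Figure D2:**
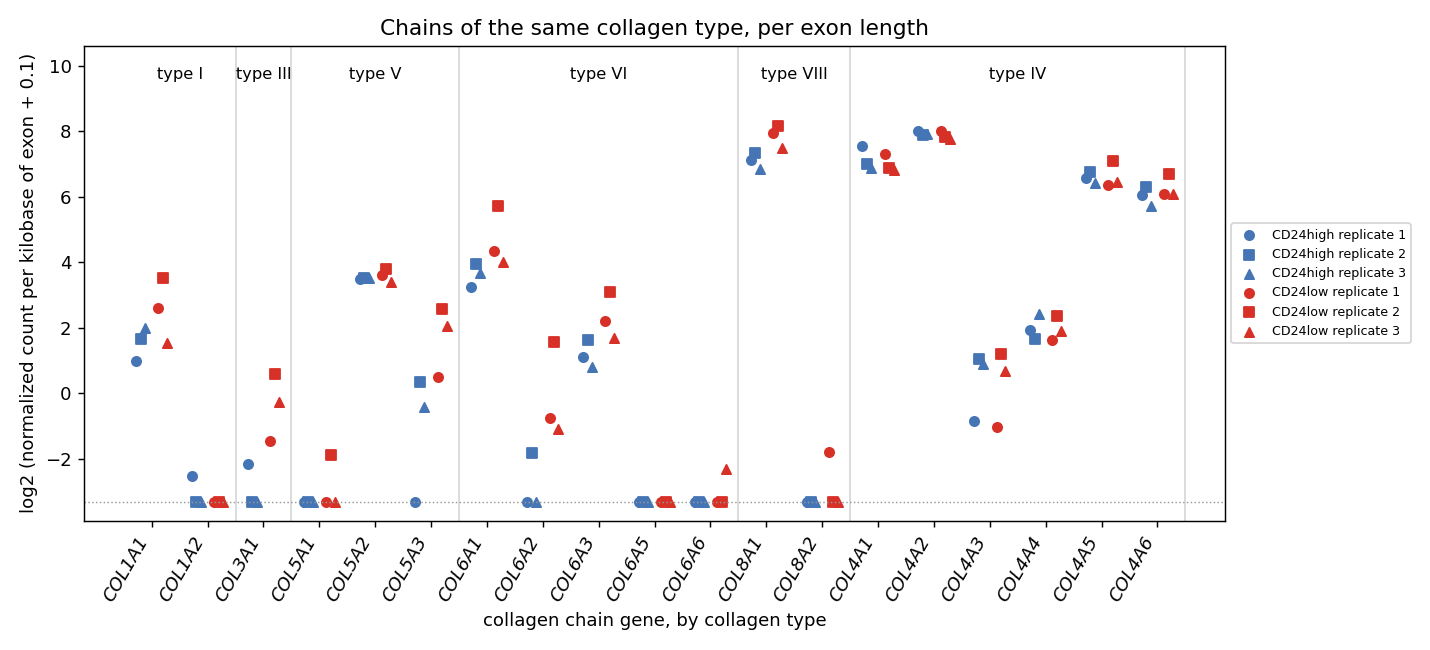
Level per kilobase of annotated exon (log2 of normalized count per kilobase + 0.1, vertical axis) of chain genes grouped by collagen type, in each library; the dotted line marks 0 reads. COL1A2, COL5A1, COL6A5, COL6A6 and COL8A2 lie at or next to 0 reads in all 6 libraries beside the higher COL1A1, COL5A2, COL6A1 and COL8A1.

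For the promoter of COL5A3, the tested collagen gene with the largest difference, the bases before the RefSeq start were read from the RefSeq promoter table (GRCh38.p14, chr19:10010505-10010754, minus strand); capitals mark the GC box GGGCGG.
COL5A3: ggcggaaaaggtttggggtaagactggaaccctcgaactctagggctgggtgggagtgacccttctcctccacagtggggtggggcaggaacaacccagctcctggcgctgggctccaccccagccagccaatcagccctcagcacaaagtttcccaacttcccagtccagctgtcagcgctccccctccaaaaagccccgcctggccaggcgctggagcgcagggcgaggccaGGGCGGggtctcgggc

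Type IV genes made up the largest class of the collagen signal, and none of them passed a test between the fractions. The 6 type IV genes summed to 9467, 8480 and 7944 normalized counts in CD24high replicates 1 to 3 and to 8945, 8772 and 7497 in CD24low replicates 1 to 3, which was 54.9% to 58.1% and 42.2% to 52.3% of all collagen normalized counts. The summed ranges overlapped, while the shares did not. All 6 genes were tested, and their median difference was -0.05. Groups that did not overlap were seen for 0 of 6, against 10.2% of all tested genes higher and 9.32% lower in CD24low. Limma and edgeR called 0% of all tested genes, and DESeq2 called 1.36% as higher and 1.15% as lower.

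COL4A1 and COL4A2 encode the chains of the common type IV heterotrimer found in nearly all basement membranes and lie head to head on chromosome 13 (110148963 to 110307233, minus strand, and 110305812 to 110513209, plus strand), with RefSeq starts 126 bases apart. COL4A1 had 2762, 1873 and 1746 normalized counts in CD24high and 2327, 1730 and 1639 in CD24low replicates 1 to 3. COL4A2 had 4929, 4564 and 4639 in CD24high and 4977, 4405 and 4153 in CD24low replicates 1 to 3. For both genes the library numbered 1 was the highest in each fraction. COL4A1 differed by -0.15 (SE 0.19, 95% interval -0.58 to 0.28) and COL4A2 by -0.07 (SE 0.11, 95% interval -0.31 to 0.18), with limma adjusted p of 0.770 and 0.830. These intervals allow at most a 1.21-fold higher and a 1.13-fold higher level in CD24low cells, and levels down to 0.669 and 0.807 of those in CD24high. COL4A1 per kilobase was 0.493 to 0.733 of COL4A2 in CD24high and 0.514 to 0.612 in CD24low libraries.

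The X-linked pair COL4A5 and COL4A6, whose chains join in the type IV collagen of the basement membranes of skin and smooth muscle, is also divergent, with RefSeq starts 379 bases apart. COL4A5 (108439844 to 108697545, plus strand) had 1124, 1271 and 1001 normalized counts in CD24high and 975, 1621 and 1031 in CD24low replicates 1 to 3. COL4A6 (108155607 to 108439497, minus strand) had 611, 723 and 489 in CD24high and 632, 946 and 624 in CD24low replicates 1 to 3. Within each fraction the library numbered 2 was the highest for both genes. The differences were 0.06 (95% interval -0.36 to 0.49) for COL4A5 and 0.26 (-0.17 to 0.70) for COL4A6, with limma adjusted p of 0.913 and 0.589. The ratio of COL4A5 to COL4A6 per kilobase was 1.44, 1.38 and 1.60 in CD24high replicates 1 to 3 and 1.21, 1.34 and 1.29 in CD24low replicates 1 to 3, so the ranges of this ratio did not overlap. It was chosen after its values were seen and was not tested.

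The third divergent pair, COL4A3 and COL4A4 on chromosome 2 (227164565 to 227314792, plus strand, and 227002711 to 227164453, minus strand), encodes chains known from kidney and lung basement membranes, and was low. COL4A3 had 4.15, 17.8 and 16.1 normalized counts in CD24high and 3.53, 20.1 and 13.7 in CD24low replicates 1 to 3, so the library numbered 1 was the lowest in each fraction. COL4A4 had 37.3, 30.6 and 52.6 in CD24high and 30.0, 50.6 and 36.2 in CD24low replicates 1 to 3. Their differences were -0.08 (95% interval -1.58 to 1.42) and -0.04 (-0.71 to 0.62), with SE of 0.67 and 0.30. Per kilobase COL4A3 was 0.123 to 0.641 of COL4A4 over the 6 libraries, a wider spread than in the other pairs.

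Sequence between the starts of the X-linked and chromosome 2 pairs is shown because each pair shares it (chrX:108439588-108439837 and chr2:227164454-227164564, GRCh38.p14, plus strand, outside annotated exons); capitals mark the GC box GGGCGG, which is in the chromosome 2 stretch and not in the X-linked one.
COL4A5 and COL4A6: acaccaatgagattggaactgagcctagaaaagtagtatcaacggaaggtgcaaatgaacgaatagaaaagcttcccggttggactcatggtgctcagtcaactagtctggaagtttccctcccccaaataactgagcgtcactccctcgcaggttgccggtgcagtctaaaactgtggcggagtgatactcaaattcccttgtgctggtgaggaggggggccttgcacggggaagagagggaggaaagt
COL4A3 and COL4A4: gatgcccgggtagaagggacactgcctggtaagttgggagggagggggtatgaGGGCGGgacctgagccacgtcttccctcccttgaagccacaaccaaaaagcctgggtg

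COL12A1 and COL16A1 encode fibril-associated collagens, which sit on the surface of fibrils and do not form fibrils themselves. COL12A1 (chromosome 6, 75084326 to 75206051, minus strand) had the highest level per kilobase of annotated exon among all collagen genes. Its mean was 326 normalized counts per kilobase, against 239 for COL4A2 and 188 for COL8A1. This order depends on the union of annotated exons, 12481 bases for COL12A1 and 19293 for COL4A2. Before division by length COL4A2 was higher, with a mean of 4610 normalized counts against 4070. COL12A1 had 3666, 3087 and 3890 normalized counts in CD24high and 4179, 5804 and 3795 in CD24low replicates 1 to 3. CD24low replicate 3 lay below CD24high replicate 3, so the groups overlapped. The difference was 0.35 (SE 0.17, 95% interval -0.01 to 0.72, limma adjusted p = 0.384, DESeq2 adjusted p = 0.331), and 0.17 without CD24low replicate 2. COL16A1 (chromosome 1, 31652247 to 31704319, minus strand) had 57.3, 49.4 and 42.4 in CD24high and 60.8, 106 and 44.1 in CD24low replicates 1 to 3. Its difference of 0.41 (95% interval -0.30 to 1.12, limma adjusted p = 0.602) was 0.07 without CD24low replicate 2, and -0.27 and 0.91 within low and high rRNA share. The other 8 fibril-associated genes lay below the filter.

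COL7A1, the chain gene of the homotrimeric anchoring fibrils that tie the epidermal basement membrane to the tissue below (chromosome 3, 48564073 to 48595267, minus strand), ranged widely among the libraries of each fraction. It had 1190, 1325 and 766 normalized counts in CD24high and 1244, 2102 and 533 in CD24low replicates 1 to 3, a 3.95-fold range. In each fraction the library numbered 2 was the highest and the one numbered 3 the lowest. The difference was 0.07 (SE 0.41, 95% interval -0.86 to 1.00, limma adjusted p = 0.960). Within low rRNA share it was -1.24 and within high share 1.08, and it was -0.39 without CD24low replicate 2.

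COL12A1 and COL7A1 both had the letters of a GC box before the RefSeq start. COL7A1 also had those of a TATA box on the other strand, TTTATA, from base 127 of the 250 shown. Whether these letters act as promoter elements was not tested. The upstream bases of both genes are shown, COL12A1 for its level per kilobase of annotated exon and COL7A1 as the anchoring fibril gene. The stretches are chr6:75206054-75206303 and chr3:48595330-48595579 (GRCh38.p14, both minus strand), with the boxes in capitals on either strand.
COL12A1: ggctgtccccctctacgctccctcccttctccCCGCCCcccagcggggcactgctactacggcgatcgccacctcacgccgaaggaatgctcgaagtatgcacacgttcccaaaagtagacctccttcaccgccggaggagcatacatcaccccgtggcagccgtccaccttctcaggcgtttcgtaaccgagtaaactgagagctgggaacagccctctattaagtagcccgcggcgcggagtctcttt
COL7A1: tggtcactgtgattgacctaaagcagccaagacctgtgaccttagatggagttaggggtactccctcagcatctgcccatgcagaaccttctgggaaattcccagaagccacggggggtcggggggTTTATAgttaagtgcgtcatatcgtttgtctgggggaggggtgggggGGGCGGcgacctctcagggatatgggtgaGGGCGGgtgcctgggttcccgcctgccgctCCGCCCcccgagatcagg

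Promoter entries were found for 14 of the 18 tested genes (31 of 43 members). COL1A1, COL5A2, COL6A1 and COL8A1 had none. In the 250 bases before the start, searched on both strands, the GC box GGGCGG was in 8 of 14 tested collagen promoters and in 42.3% of 27305 promoters of the table. The TATA box TATAAA was in 2 of 14 (11.1% of all), the core TGTGGT read by RUNX factors in 0 of 14 (10.9% of all) and the E-box CACCTG read by ZEB and SNAI factors in 3 of 14 (17.5% of all), namely COL16A1, COL4A3 and COL4A4. None of these motifs contains another. The searched windows overlap within each divergent type IV pair, so a motif in the shared bases counts for both genes. COL4A3 and COL4A4 are such a pair.

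COL13A1 and COL18A1 were the remaining tested genes. COL13A1 (chromosome 10, 69801867 to 69964275, plus strand), a collagen that spans the plasma membrane and is known from cell adhesion sites and the neuromuscular junction, had 188, 277 and 132 normalized counts in CD24high and 201, 162 and 150 in CD24low replicates 1 to 3. Its difference was -0.16 (95% interval -0.73 to 0.41, limma adjusted p = 0.820), and -0.60 and 0.46 within low and high rRNA share. COL18A1 (chromosome 21, 45405137 to 45513720, plus strand), a basement membrane collagen that carries heparan sulfate and whose end is released as endostatin, had 205, 335 and 339 in CD24high and 206, 335 and 336 in CD24low replicates 1 to 3. The 2 libraries that share a number were nearly equal, while the library numbered 1 was low in each fraction. The difference was -0.0008 (SE 0.25, 95% interval -0.56 to 0.55, limma adjusted p = 0.999). Of the annotated exon bases of COL18A1, 16.4% lie under SLC19A1 on the other strand, so its count is uncertain without the counter's strand setting.

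**Figure D3:**
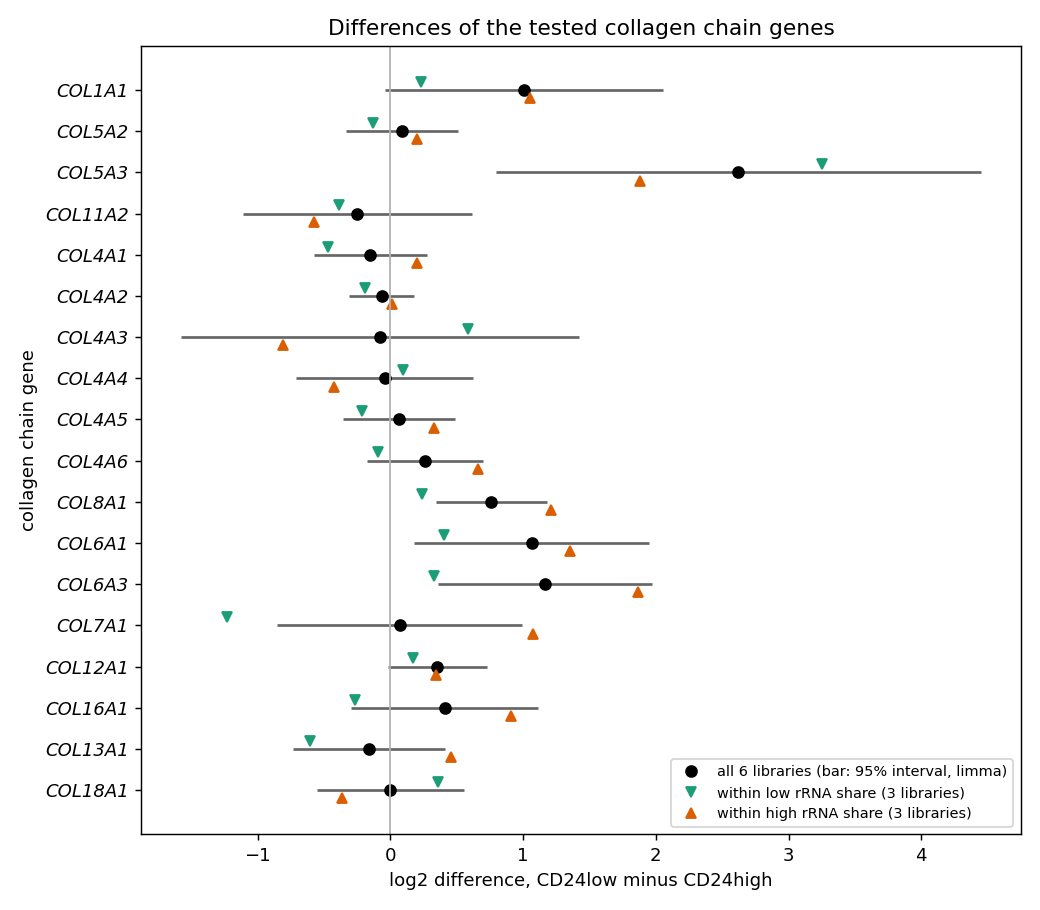
Log2 difference, CD24low minus CD24high (horizontal axis), of each tested collagen chain gene: black points with limma's 95% intervals for all 6 libraries, green and orange triangles for the untested differences within low and within high rRNA share. The intervals of COL5A3, COL6A1, COL6A3 and COL8A1 lie above 0. For these genes every CD24low library exceeded every CD24high library, so both of their triangles had to lie above 0.

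Summed over all 43 genes, collagen signal was 16307, 15380 and 14464 normalized counts in CD24high and 17561, 20779 and 14340 in CD24low replicates 1 to 3. CD24low replicate 3 was the lowest of all libraries and CD24low replicate 2 the highest, so the groups overlapped. Means were 15383 ± 921 and 17560 ± 3219 (SD, n = 3 libraries each), or 0.0658% and 0.0734% of all normalized counts. By class, short-chain collagens summed to 1084 to 1523 and 1666 to 2698 normalized counts, beaded-filament collagens to 89.6 to 140 and 148 to 457, and fibrillar collagens to 119 to 152 and 149 to 292. The first 2 of these classes did not overlap between the fractions and the fibrillar class did. Those 2 sums are mostly COL8A1, and COL6A1 with COL6A3, so they repeat genes already given as not overlapping. Anchoring fibril, fibril-associated, transmembrane and multiplexin sums overlapped, with CD24low means 1.18, 1.3, 0.864 and 1.01 times those in CD24high. The class of COL26A1 and COL28A1 did not overlap, at 0 to 1.98 and 3.92 to 11.5 normalized counts. COL26A1 had 0 reads in all libraries, so this sum is COL28A1 alone, a gene below the filter. Sums were not tested, since the members were chosen with results known.

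**Figure D4:**
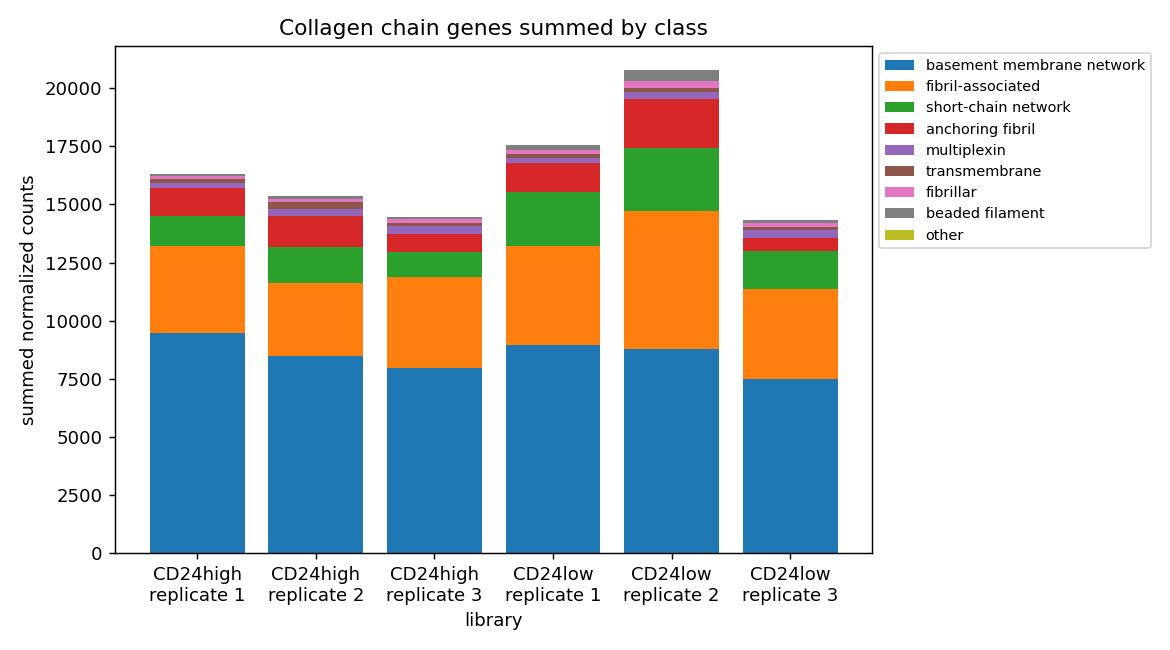
Normalized counts of the 43 collagen chain genes summed by class (vertical axis, from 0) in each library. Type IV genes (blue) and fibril-associated genes (orange) make up most of each bar, and CD24low replicate 2 has the tallest bar, 20779 normalized counts.

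One library stood out among the collagens. CD24low replicate 2 was the highest of the 6 libraries for 12 of 18 tested collagen genes, against 23.7% of all tested genes. Without it, limma called 0 collagen genes and 0% of all genes, DESeq2 called 0 collagen genes and 0.854% of all genes, and 4 collagen genes had non-overlapping groups with CD24low higher, against 14.6% of all genes, and 1, COL11A2, with CD24low lower, against 12.6%. That library also had the lowest CD24 count, the lowest pan-epithelial sum and the highest fibroblast marker sum given above. The part of these in its collagen values was not tested. CD24low replicate 3, which had the highest CD24 count of its fraction, moved the calls the other way. Without it DESeq2 called 4 collagen genes, against 5.24% of all genes: COL8A1 (adjusted p = 2.24e-05), COL6A3 (0.00631), COL6A1 (0.00734) and COL1A1 (0.0213). Limma called COL8A1 without that library (adjusted p = 0.0219), against 2.28% of all genes.

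The 25 genes below the filter reached at most 24.8 normalized counts in any library. Of these, 6 had 0 reads in all libraries (COL6A5, COL9A1, COL10A1, COL14A1, COL25A1 and COL26A1), a count that, by counting error only, allows up to 3 reads, or 2.49 to 4.38 normalized counts depending on the library's depth. In all, 17 had at most 3 reads in every library and 8 had more in some library. Of those 8, 5 were highest in CD24low replicate 2: COL3A1, COL6A2, COL9A3, COL15A1 and COL28A1. COL9A3, a chain gene of cartilage type IX collagen, had 26 reads there and 1 to 7 in the other libraries. In 4 of the 25 every CD24low library lay above every CD24high library and in 0 below: COL3A1, COL6A2, COL27A1 and COL28A1. With the 6 genes at 0 set aside, that is 4 of 19, against 3.64% above and 3.96% below among 15184 genes below the filter with at least 1 read. For COL3A1 and COL6A2 the nearest libraries of the fractions were 2 reads against 1. COL27A1, a fibrillar chain gene known from cartilage, had 1, 2 and 1 reads in CD24high and 9, 8 and 3 in CD24low replicates 1 to 3. COL28A1 had 1, 2 and 0 reads in CD24high and 5, 12 and 4 in CD24low replicates 1 to 3. These genes were named after their values were seen.

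Enzymes and chaperones that fold, hydroxylate, cut and cross-link collagen were counted from a list of 39, of which 38 were in the table and 30 were tested. Limma called 0 (0% of all genes), and DESeq2 called 6 as higher and 0 as lower (1.36% and 1.15% of all genes). In 13 every CD24low library was above and in 3 below every CD24high library, against 10.2% and 9.32% of all genes. The median difference was 0.16. P3H3, a prolyl hydroxylase of the collagen endoplasmic reticulum machinery, had 0, 0.988 and 1.46 normalized counts in CD24high and 19.4, 46.8 and 8.82 in CD24low replicates 1 to 3 (limma adjusted p = 0.0778, DESeq2 adjusted p = 0.00401). Its mean was 0.816 in CD24high and 25.0 in CD24low, so P3H3 reached the filter mean of 10 only through CD24low. FKBP10, a collagen chaperone, had 25.7, 28.6 and 5.84 in CD24high and 193, 386 and 83.3 in CD24low replicates 1 to 3 (difference 3.40, limma adjusted p = 0.0878). LOXL2, a collagen cross-linking oxidase, had 173, 210 and 150 in CD24high and 623, 829 and 303 in CD24low replicates 1 to 3 (difference 1.61, limma adjusted p = 0.0950). For all 3 the groups were apart, and CD24low replicate 2 was highest. DESeq2's call of LOXL2 (adjusted p = 5.96e-06) held with each of the 6 libraries left out. That of FKBP10 (0.0045) was lost without CD24low replicate 1 (0.0598), and that of P3H3 without CD24high replicate 1 (0.0527) or CD24low replicate 2 (0.134).

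Of 12 collagen receptors, 8 were tested; limma called 0 (0% of all genes), and DESeq2 called MRC2 as higher and ITGA2 as lower (1.36% and 1.15% of all genes). ITGA2, the alpha subunit of a collagen-binding integrin, had 2411, 2339 and 1885 normalized counts in CD24high and 1358, 1181 and 1527 in CD24low replicates 1 to 3, and was lower in every CD24low library (difference -0.71, limma adjusted p = 0.0944, DESeq2 adjusted p = 0.000571). MRC2, an endocytic receptor that takes up collagen fragments, had 68.0, 109 and 65.8 in CD24high and 142, 425 and 120 in CD24low replicates 1 to 3 (difference 1.29, limma adjusted p = 0.245, DESeq2 adjusted p = 0.0181). ADGRG1, an adhesion receptor that binds type III collagen, had 1212, 1427 and 1981 in CD24high and 1055, 949 and 1190 in CD24low replicates 1 to 3 (difference -0.51, limma adjusted p = 0.266). The DESeq2 call of ITGA2 held with each of the 6 libraries left out, and that of MRC2 was lost without CD24high replicate 1 (adjusted p = 0.645), CD24high replicate 3 (0.445) or CD24low replicate 2 (0.504).

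Of 13 collagen-cleaving proteases and inhibitors 8 were tested; limma called 0 (0% of all genes), and DESeq2 called TIMP1 as higher and FAP as lower (1.36% and 1.15% of all genes). TIMP1, an inhibitor of metalloproteases, had 1159, 1319 and 1219 normalized counts in CD24high and 2604, 4997 and 2418 in CD24low replicates 1 to 3 (difference 1.36, limma adjusted p = 0.0778). FAP, a gelatin-cleaving membrane protease, had 1152, 898 and 845 in CD24high and 622, 614 and 742 in CD24low replicates 1 to 3. TIMP3, a matrix-bound inhibitor, had 1957, 1485 and 1641 and then 1468, 960 and 1469 (difference -0.40, limma adjusted p = 0.370), with every CD24low library below every CD24high one. DESeq2's call of TIMP1 (adjusted p = 1.57e-06) was lost without CD24high replicate 1 (0.13) or 3 (0.098). Its call of FAP (0.0362) was lost without CD24high replicate 1 (0.244) or 2 (0.105) or CD24low replicate 1 (0.26) or 2 (0.228).

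Among laminins and other partners of type IV collagen in the basement membrane, DESeq2 called 3 of 16 tested genes, all lower (1.15% of all genes), and limma called 0 (0% of all genes). The list held 19 genes, and its median difference was 0.08. LAMA3 and LAMB3, which encode laminin chains of epithelial basement membranes, were among those called, with differences of -0.95 and -0.57 (limma adjusted p of 0.165 and 0.198). LAMA3 had 18378, 13464 and 13086 normalized counts in CD24high and 9934, 5034 and 8914 in CD24low replicates 1 to 3. LAMB3 had 12856, 10870 and 12055 in CD24high and 10032, 6415 and 8024 in CD24low replicates 1 to 3. CD24low replicate 2, the highest library for most collagens, was the lowest for both genes. The DESeq2 call of LAMA3 (adjusted p = 0.0045) was lost without CD24high replicate 1 (0.118). That of LAMB3 (0.0389) passed in 1 of 6 fits with a library left out, and was lost without CD24high replicate 1 (0.24), 2 (0.1) or 3 (0.157) or CD24low replicate 2 (0.242) or 3 (0.0979).

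Of 22 fibril organizers, matrix proteins that bind or order collagen fibrils, 10 were tested. Limma called 0 (0% of all genes), and DESeq2 called 4 as higher and 0 as lower (1.36% and 1.15% of all genes). In 6 every CD24low library was above every CD24high library, against 10.2% of all genes, and the median difference was 0.86. POSTN encodes periostin, which binds type I collagen, and had 11.6, 6.92 and 2.92 normalized counts in CD24high and 41.4, 58.3 and 51.9 in CD24low replicates 1 to 3 (limma adjusted p = 0.0676). Its mean was 7.15 in CD24high and 50.5 in CD24low, so POSTN reached the filter mean of 10 only through CD24low. FN1, encoding fibronectin, on which collagen fibrils assemble, had 3621, 4167 and 2313 in CD24high and 18455, 39759 and 10020 in CD24low replicates 1 to 3 (limma adjusted p = 0.0720). FBN2, a fibrillin, had 1330, 1455 and 1143 in CD24high and 3060, 4035 and 1976 in CD24low replicates 1 to 3 (limma adjusted p = 0.0944). DESeq2 called all 3 (adjusted p of 4.8e-05, 0.00116 and 2.71e-05), and these calls held with each of the 6 libraries left out. The other call, FBN1, a fibrillin gene named here after its values were seen (adjusted p = 0.0238), passed in 1 of 6 such fits, that without CD24low replicate 3 (1.24e-11), and ran from 0.101 to 0.194 in the others.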

How the data were processed

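RNA was measured in 6 libraries of sorted MCF10AT1 cells, 3 per fraction, grouped by their titles. The deposited table holds 1 signal value per gene and library: a gene count that the authors scaled by a DESeq2 size factor, per the submitters' processing notes. STAR 2.5.2, R 3.5.0 and genome build hg38 are named there too. Not given in the sources used here are the read counter, how it treated strand, and the annotation. Within a library each value was a whole multiple of 1 step, and dividing by it recovered the reads (100% whole within 0.1 reads). Of 58381 IDs, 58261 matched GENCODE 29 without version, which gave symbols and coordinates. Levels per kilobase used the union of annotated exons, which rare isoforms lengthen.

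Limma 3.58.1 with a trend was fitted to log2 (normalized count + 1) with the fraction as its single term. The 16047 genes whose mean reached 10 entered, and two-sided p-values were adjusted by Benjamini-Hochberg with a threshold of 0.05. The pseudocount of 1 understates changes of low genes. DESeq2 1.42.0 and edgeR 4.0.16 used the recovered reads, in R 4.3.3. Other settings were pseudocounts of 0.5 and 5, a filter of none or of a mean of 50, no trend, and total and TMM scaling. Further settings were the replicate block, the rRNA group (low or high share, split at 5%) as a term, within-share values and each library left out. The fits were tested on simulated data with 200 of 16047 genes changed. At 2-fold, limma recovered 68% with 7 false calls, DESeq2 75% with 46 and edgeR 70% with 7. At 4-fold the false calls were 9 for limma, 36 for DESeq2 and 12 for edgeR. The naming rule took all 18 tested collagen genes, the genes with the 3 smallest limma p of each related list, CD24 and CD44; 1 gene that it took is not reported here. Members and lists were chosen with earlier results of these data known, so no list was tested. Every pair of replicates of a fraction differed beyond sampling noise.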

Additional observations from a re-analysis of the deposited data

How the results depend on the processing

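Over the 19 alternatives, 6 of 18 collagen genes kept the sign of their difference in every one that gave a value: COL1A1, COL12A1, COL5A3, COL6A1, COL6A3 and COL8A1. For COL5A3, COL6A1, COL6A3 and COL8A1 the groups did not overlap. Their sign with a library left out or within rRNA share was therefore fixed in advance. The count of collagen genes past the adjusted threshold was 0 in the main test and 1 with DESeq2 on recovered reads. With the replicate block in limma it was 4 (COL5A3, COL6A1, COL6A3 and COL8A1), all higher in CD24low. That block called 4.46% of all genes, and 2.16% as higher in CD24low. With a library left out the limma count was 0 to 1, the 1 being COL8A1 without CD24low replicate 3 (limma adjusted p = 0.0219). Deviations of same-numbered libraries correlated at 0.27, 0.30 and 0.05 over 16047 genes. The weak value for number 3 does not settle whether those libraries are paired. The main test takes no account of pairing by number, and the values with the block are given here only. Not every library correlated best with its own number. The count of 4 collagen genes with groups that do not overlap was 8 with no filter (37 genes). It was 14 within low and 14 within high rRNA share, where 1 library stands on a side and groups separate more easily. With a library left out it was 4 to 8, the 8 without CD24low replicate 3. No share of all genes is given beside these counts, except above for the fit without CD24low replicate 2. They are therefore not read as a result about the collagens. The count of genes without overlap has no value for the fits without trend, with the block or with the rRNA group as a term. The scaling alternatives moved the median of all genes by less than 0.1.

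Differences that changed sign were all of genes past no test, and the cause was not tested. COL18A1 was 0.0005 and COL4A3 0.014 with edgeR, and COL7A1 was -0.079 with the rRNA group as a term. With 1 library left out, COL18A1 ran from -0.24 to 0.23, COL4A3 from -0.68 to 0.57, COL7A1 from -0.39 to 0.60, COL4A4 from -0.24 to 0.17, COL4A5 from -0.17 to 0.20, COL4A1 from -0.31 to 0.052, COL13A1 from -0.43 to 0.11, COL11A2 from -0.50 to 0.013 and COL5A2 from -0.015 to 0.19. Signs also changed within rRNA share, where 1 library stands on a side. COL16A1 was -0.27 and COL4A6 -0.09 within low share, and COL4A2 was 0.013 within high share. COL7A1 was -1.24 within low and 1.08 within high share. COL4A3, COL5A3 and COL11A2 had the lowest counts of the tested genes, so counting error is largest for them and for the genes below the filter.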
